A study of Homo sapiens with 15 samples.

Results

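The 31 genes described here, among 60664 annotated genes, are integrin subunit and laminin chain genes (13 integrin alpha, 8 integrin beta and 10 laminin genes). They were taken by symbol, from a fixed list chosen with earlier results of these data known. Their RNA was counted in T47D, an established human luminal breast cancer line, in 15 libraries that fell into 5 groups of 3. Parental cells, which respond to the active tamoxifen metabolite 4-hydroxytamoxifen (4-OHT), received vehicle (PAR vehicle). Cells of a 4-OHT resistant derivative received vehicle (TR vehicle), 1 µM 4-OHT (TR 4-OHT), 5 µM erdafitinib, an inhibitor of the FGF receptor kinases (TR erdafitinib), or both drugs at those doses (TR combination). In all groups 24 h of attachment were followed by 48 h in medium with 2% charcoal-stripped serum and by 120 h of treatment, the vehicle being 0.05% DMSO. Before the experiment the parental cells were grown in 5% serum, and the resistant cells in 2% charcoal-stripped serum with 1 µM 4-OHT, so resistance and growth history cannot be told apart, and the labels name 1 resistant line only. The series compared resistant with parental cells and asked what FGF receptor inhibition does to the resistant cells.

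Integrins are cell surface receptors made of an alpha and a beta subunit, and the pair decides which matrix protein is bound. ITGB1 serves many alpha subunits, ITGA5 with ITGB1 binds fibronectin, ITGAV pairs with several beta subunits, and the receptors of ITGAV with ITGB6 or ITGB8 are known to activate latent TGF-beta. Laminins are trimers of an alpha, a beta and a gamma chain and form the sheets of the basement membrane on which breast epithelium rests. Receptors of ITGA3 with ITGB1, or of ITGA6 with ITGB1 or ITGB4, hold laminins there.

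Of the 31 genes, 22 were tested (8 alpha, 6 beta and 8 laminin genes). A further 8 had fewer than 10 counts in every library and are given as not expressed, namely ITGA4 and ITGA8, which had 0 counts in all 15 libraries, ITGA9, ITGA11, ITGB2, ITGB3, LAMA1 and LAMC3. ITGA1 had 89 counts over all libraries and at most 17 in any one, and it did not pass the filter on low counts. ITGB2 belongs to leukocyte integrins and ITGB3 to the vitronectin receptor of platelets and vessels, and ITGB3 had 0 counts in PAR vehicle and 10 in TR vehicle.

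Library totals ran from 6946684 counts (PAR vehicle 2) to 28717380 (TR erdafitinib 2), so that 3 counts, the limit a count of 0 allows, equalled 0.0984 to 0.477 CPM (counts scaled to a common library size), and mitochondrial genes took 14.5 to 25.7% of counts. Libraries of the same group stood apart along the GC content of transcripts. A first axis held 49.5% of the variance within groups and ran with GC across genes (Spearman 0.722, genes not being independent), and the GC-richest quintile of genes (median GC 60.9%) deviated from the mean of its own group by -1.02 on the log2 scale in TR vehicle 1 and by 0.886 in PAR vehicle 3. The summed level of 10 luminal markers, among them GATA3, FOXA1, ESR1 and KRT8, was 3476 to 5299 CPM over all libraries. Single markers differed in opposite directions between PAR vehicle and TR vehicle. Means were 576 and 212 CPM for ESR1 and 393 and 165 CPM for FOXA1, but 390.4 and 863 CPM for KRT8 and 486 and 664 CPM for GATA3. Of 8 basal or myoepithelial markers the sum was 5.2 to 6.04 CPM in PAR vehicle and 449 to 1179 CPM in TR vehicle, carried by ACTA2, MYLK and TP63, while OXTR was at means of 1.91 and 1.35 CPM and KRT5, KRT14, KRT17 and CNN1 had fewer than 10 counts in every library. Of 8 fibroblast markers the sum was 11.9 to 28.3 CPM in PAR vehicle and 13.6 to 38.7 CPM in TR vehicle, nearly all of it COL1A1 (means of 17.9 and 27.0 CPM), with COL3A1 at means of 0 and 1.88 CPM, THY1 at 0.0243 and 0.714 CPM, COL1A2 at 0 counts and PDGFRA and PDGFRB at no more than 1 count in any library. Of 7 leukocyte markers the sum was 9.1 to 11.9 CPM in PAR vehicle and 6.35 to 7.67 CPM in TR vehicle, mostly LCP1 (means of 10.3 and 5.9 CPM), with CD3E at 0 counts and PTPRC at no more than 3. Endothelial markers summed to at most 0.155 CPM.

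Resistant cells on vehicle held more RNA of the fibronectin receptor subunit ITGA5, of ITGA6, ITGAV and ITGB1, of ITGB6 and ITGB8, and of the laminin chains LAMB1, LAMB3 and LAMC1 than parental cells on vehicle, by 1.99-fold (LAMB1) to 143-fold (ITGB6). Of the 22 tested genes 12 rose and 1, LAMA3, fell (edgeR quasi-likelihood test, Benjamini-Hochberg adjusted p under 0.05 over 16210 genes, 3 libraries a group). That is 59.1% of the members called, against 35.9% of all genes tested, with 12 of 22 higher against 19.9% of all genes and 1 of 22 lower against 16.0%. Their median log2 fold change was 1.50, and 0.07 over all genes. The 3 libraries of one group lay wholly above those of the other for 14 of the 22 genes, 13 of them higher in TR vehicle, against 41.0% of all genes without overlap and 22.5% higher without overlap. ITGB6, ITGB7, LAMB3, LAMA2 and LAMA4 had 0 counts in PAR vehicle 2 and passed the filter on low counts only through resistant libraries. Against PAR vehicle they could enter only as higher in resistant cells, so their direction adds no support to these counts. In RNA of whole cultures, more cells that express a gene and more RNA per cell cannot be told apart. The summed basal markers (5.2 to 6.04 against 449 to 1179 CPM) and leukocyte markers (9.1 to 11.9 against 6.35 to 7.67 CPM) did not overlap between the same groups, and their part in these values was not tested.

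ITGB6 and LAMB3 were close to absent from the parental cells, and LAMA3, the alpha chain that assembles with LAMB3 in the laminin of epithelial anchoring structures, was present there. The reference sequence around the annotated start of these genes and of ITGA5 is shown because ITGB6, LAMB3 and ITGA5 had the 3 largest fitted fold changes among members with more than 3 counts in PAR vehicle and LAMA3 was the 1 that fell. Each stretch is the RefSeq window of 250 bases before and 50 after a gene start (GRCh38.p14), 5′ to 3′ on the gene's strand, with capitals at matches on either strand to TGANTCA (the AP-1 motif), GGAATG (the TEAD motif) or CACCTG (the E-box read by SNAI and ZEB factors).

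ITGB6: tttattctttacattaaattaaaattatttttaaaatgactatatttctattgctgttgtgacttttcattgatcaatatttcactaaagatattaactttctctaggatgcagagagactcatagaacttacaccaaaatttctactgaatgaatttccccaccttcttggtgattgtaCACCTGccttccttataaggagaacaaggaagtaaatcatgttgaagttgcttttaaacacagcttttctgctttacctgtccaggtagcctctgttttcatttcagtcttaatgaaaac

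LAMB3: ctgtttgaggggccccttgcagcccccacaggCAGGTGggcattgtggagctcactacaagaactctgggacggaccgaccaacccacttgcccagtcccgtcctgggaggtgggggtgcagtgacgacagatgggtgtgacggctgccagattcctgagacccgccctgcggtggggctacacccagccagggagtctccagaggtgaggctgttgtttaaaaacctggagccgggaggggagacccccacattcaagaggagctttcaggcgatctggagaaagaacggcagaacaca

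LAMA3: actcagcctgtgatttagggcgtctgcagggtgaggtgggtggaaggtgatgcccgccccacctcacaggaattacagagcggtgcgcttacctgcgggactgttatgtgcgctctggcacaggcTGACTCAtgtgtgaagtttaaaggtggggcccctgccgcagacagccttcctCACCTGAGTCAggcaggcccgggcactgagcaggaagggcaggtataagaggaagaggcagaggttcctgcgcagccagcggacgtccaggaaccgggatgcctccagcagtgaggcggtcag

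ITGA5: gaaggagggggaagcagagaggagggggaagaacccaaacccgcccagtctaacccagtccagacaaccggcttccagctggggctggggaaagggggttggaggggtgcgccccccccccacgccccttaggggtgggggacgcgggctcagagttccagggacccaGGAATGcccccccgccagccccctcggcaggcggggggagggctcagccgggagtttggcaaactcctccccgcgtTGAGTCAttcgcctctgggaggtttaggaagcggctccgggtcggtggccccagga

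The ITGB6 window is chr2:160200223-160200522 (minus strand), at the 5′ end of a gene that the annotation places at 160099667 to 160200313. It held 1 E-box. The LAMB3 window is chr1:209652376-209652675 (minus strand), the first of 3 start windows listed for a gene at 209614870 to 209652425, and held 1 E-box. The LAMA3 window is chr18:23872770-23873069 (plus strand), inside the gene's span of 23689453 to 23956222, and held 2 AP-1 matches, the downstream one overlapping an E-box. The ITGA5 window is chr12:54419217-54419516 (minus strand), at the start of a gene at 54395261 to 54419266, and held 1 AP-1 and 1 TEAD match. Of 35116 windows of this length in the table, 7.71% held the AP-1 letters, 14.0% the TEAD letters and 20.6% the E-box letters. Among the 23 listed genes with a window, 2, 4 and 6 held them, and a match is a description of letters, not a bound site.

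ITGB6 encodes the beta subunit of an epithelial receptor for fibronectin, tenascin and latent TGF-beta. Its level was 0.42, 0 and 0.582 CPM in PAR vehicle libraries 1 to 3 and 75.7, 47.1 and 63.7 CPM in TR vehicle (21 and 4590 counts). The groups were far apart, with a log2 fold change of 7.16 (SE 0.416, edgeR adjusted p = 1.41e-08), and 7.86 without PAR vehicle 3. For a rough comparison between genes, CPM was divided by the kilobases of all annotated exons of a gene, which can exceed the length of the transcript in use. On this scale ITGB6 in TR vehicle (10.7, range 8.14 to 13.1) overlapped ITGB5 (11.1, range 6.01 to 13.9). In PAR vehicle ITGB6 (0.0577) and ITGB5 (8.04, range 5.67 to 11.4) did not overlap.

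ITGB8, the other beta partner of ITGAV that handles latent TGF-beta, was at 3.44, 1.59 and 1.02 CPM in PAR vehicle and 12.7, 6.25 and 8.58 CPM in TR vehicle. Its groups did not overlap, and its log2 fold change was 2.20 (SE 0.469, edgeR adjusted p = 0.00214), or 2.89 without PAR vehicle 1 and 1.51 without PAR vehicle 3 and TR vehicle 1 together. ITGAV itself, the shared alpha subunit, had 105, 99.1 and 72.7 CPM in PAR vehicle and 328, 158 and 207 CPM in TR vehicle, a log2 fold change of 1.32 (SE 0.262, edgeR adjusted p = 0.00124). Per kilobase it was the most abundant alpha gene in PAR vehicle (11.2) and in TR vehicle (28.1), and in PAR vehicle its range of 8.84 to 12.8 overlapped that of ITGA2 (8.1 to 13.6). ITGB5, the vitronectin receptor partner of ITGAV, was at 52.4 ± 19.4 and 72.2 ± 28.7 CPM (mean ± SD, n = 3 each). It was not called (log2 fold change 0.46, 95% interval -0.25 to 1.17). Without TR vehicle 1 it passed at 0.76 (edgeR adjusted p = 0.0444), and without PAR vehicle 3 as well at 1.11 (0.00296). After GC correction ITGB5 was at 0.23 and not called (edgeR adjusted p = 0.276).

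ITGA5 encodes the alpha subunit of the main fibronectin receptor. It was at 4.61, 5.24 and 9.02 CPM in PAR vehicle and 18.9, 64.4 and 64.8 CPM in TR vehicle, with TR vehicle 1 lowest of its group and above every parental library. The log2 fold change was 2.94 (SE 0.466, edgeR adjusted p = 0.000217), or 3.73 without PAR vehicle 3 and TR vehicle 1 together. ITGB1, the common partner of most alpha subunits here, was the most abundant beta gene in both groups, at 20.9 CPM per kilobase in PAR vehicle and 59.2 in TR vehicle. It was at 302, 353 and 256 CPM in PAR vehicle and 1138, 712 and 734 CPM in TR vehicle. Its groups did not overlap, with a log2 fold change of 1.50 (SE 0.237, edgeR adjusted p = 0.000209).

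Of the laminin receptor subunits, ITGA6 had the most uniform difference. It was at 17.9, 20.2 and 16.1 CPM in PAR vehicle and 168, 100.3 and 107 CPM in TR vehicle, a log2 fold change of 2.80 (SE 0.214, edgeR adjusted p = 2.2e-07). Per kilobase it moved from the third alpha gene in PAR vehicle (2.7, range 2.41 to 3.02) to the second in TR vehicle (18.7, range 15.0 to 25.2), where its range overlapped ITGA2 (9.13 to 18.1) and ITGAV (19.2 to 39.9). ITGB4, the hemidesmosome partner of ITGA6, was at 6.13, 4.45 and 29.2 CPM in PAR vehicle and 8.56, 56.2 and 52.1 CPM in TR vehicle. These groups overlapped, and ITGB4 was not called (log2 fold change 1.51, 95% interval -0.22 to 3.24, edgeR adjusted p = 0.148).

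ITGA3, the other epithelial laminin receptor, behaved like ITGB4 in its spread, with 7.31 to 26.0 CPM in PAR vehicle and 12.8 to 47.4 CPM in TR vehicle and no call (log2 fold change 1.27, edgeR adjusted p = 0.0907). Both genes passed without PAR vehicle 3 (ITGA3 2.04, edgeR adjusted p = 0.0178; ITGB4 2.89, 0.0162) and without TR vehicle 1 (ITGA3 1.67, 0.0196; ITGB4 1.98, 0.0428). ITGA7, a laminin receptor known best from muscle, was at 1.09, 1.27 and 1.93 CPM in PAR vehicle and 1.96, 5.24 and 5.23 CPM in TR vehicle. The groups were separated by 1.93 against 1.96 CPM at their nearest, and the log2 fold change of 1.50 (edgeR adjusted p = 0.0186) was no longer called without PAR vehicle 1 (adjusted p 0.0705), PAR vehicle 2 (0.0508), TR vehicle 2 (0.0666) or TR vehicle 3 (0.0702). It was called at 2.17 without PAR vehicle 3 and TR vehicle 1 together.

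The tested alpha subunits of collagen receptors, ITGA2 and ITGA10, gave no call in edgeR with all libraries. ITGA2 was at 80.5 ± 23.3 CPM in PAR vehicle and 100.4 ± 37.2 CPM in TR vehicle (SD, n = 3 each), with a log2 fold change of 0.32 (95% interval -0.27 to 0.90) that became -0.01 without TR vehicle 1. ITGA10, a chondrocyte collagen receptor, was at 0.503, 3.81 and 1.06 CPM in PAR vehicle, the shallowest library being highest, and at 3.25 to 5.51 CPM in TR vehicle. It was not called (log2 fold change 1.35, edgeR adjusted p = 0.0608), and it passed at 2.34 (edgeR adjusted p = 0.00079) without PAR vehicle 2 and at 1.52 (0.0477) without TR vehicle 1. DESeq2 called ITGA10 with all libraries (1.34, adjusted p = 0.02). The lymphocyte homing subunits ITGAE and ITGB7, which pair to bind E-cadherin, were low in both groups, with means of 4.09 and 6.13 CPM for ITGAE and 0.226 and 1.07 CPM for ITGB7, neither called. ITGB7 passed without PAR vehicle 3 (log2 fold change 3.31, edgeR adjusted p = 0.049). ITGAE, at 0.54 with all libraries, passed without PAR vehicle 3 and TR vehicle 1 together (1.19, edgeR adjusted p = 0.0406). After GC correction neither ITGB7 (1.65, edgeR adjusted p = 0.0576) nor ITGAE (0.35, 0.332) was called.

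**Figure D1:**
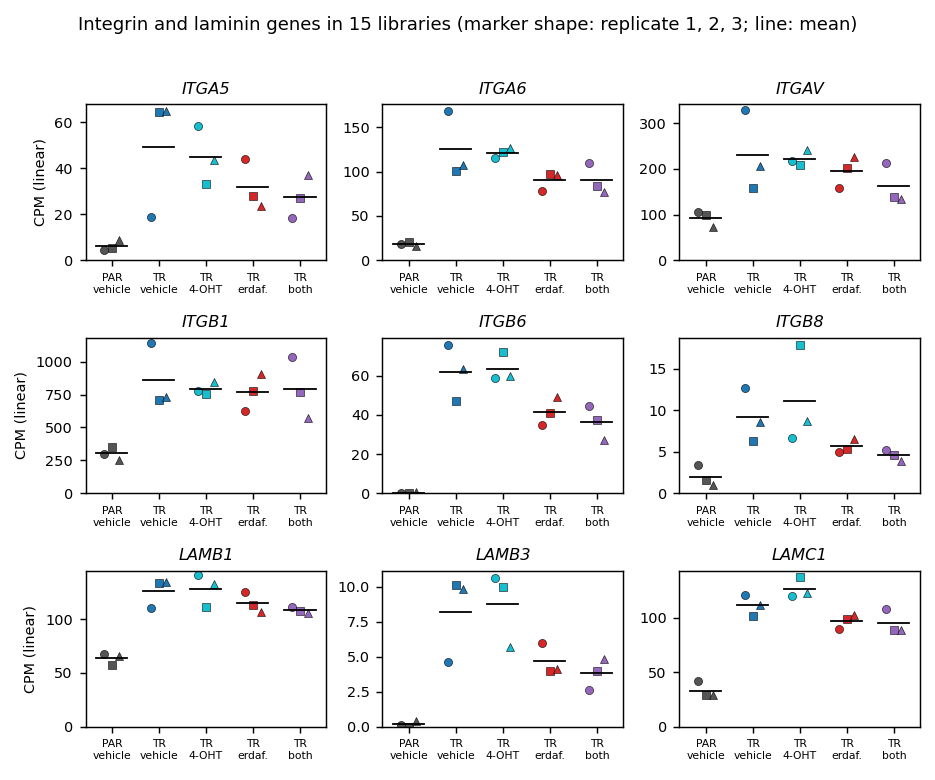
CPM on a linear axis from 0 in each of the 15 libraries for 9 members called in TR vehicle against PAR vehicle, by group, with a marker shape per replicate and a line at the group mean. ITGB6 lies at 0 to 0.582 CPM in the 3 PAR vehicle libraries and at 27.1 CPM or more in the 12 TR libraries.

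Of the laminin chains, LAMC1 and LAMB1 rose. LAMC1, the gamma chain of most laminins, was at 41.8, 29.1 and 28.6 CPM in PAR vehicle and 121, 102 and 112 CPM in TR vehicle, a log2 fold change of 1.75 (SE 0.164, edgeR adjusted p = 1.63e-06). LAMB1, a beta chain found beside it, was at 63.6 ± 5.61 and 127 ± 14.1 CPM (SD, n = 3 each), a log2 fold change of 0.99 (SE 0.137, edgeR adjusted p = 6.55e-05). Both genes varied little between libraries of a group.

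LAMB3 was at 0.0839, 0 and 0.364 CPM in PAR vehicle (11 counts in all) and 4.64, 10.1 and 9.82 CPM in TR vehicle. Its log2 fold change was 5.24 (SE 0.593, edgeR adjusted p = 1.05e-05), and 7.12 without PAR vehicle 3, which held most of the parental counts. LAMA3 was at 42.3, 28.1 and 31.8 CPM in PAR vehicle and 25.0, 21.2 and 24.8 CPM in TR vehicle. The LAMA3 groups did not overlap, and it fell by 0.53 on the log2 scale (SE 0.179, edgeR adjusted p = 0.0328), a call that was lost without PAR vehicle 1 (-0.34, adjusted p 0.174), TR vehicle 2 (-0.43, 0.131) or TR vehicle 3 (-0.54, 0.0717). Per kilobase LAMA3 stood at 2.35 in PAR vehicle and LAMB3 at 0.0321, and in TR vehicle LAMA3 (1.63, range 1.46 to 1.73) lay within the range of LAMB3 (1.76, range 0.999 to 2.17). That likeness rests on annotated exon lengths of 14488 bases for LAMA3 and 4647 for LAMB3. In CPM the TR vehicle means were 23.7 and 8.19.

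LAMA2 and LAMA4, alpha chains best known from muscle and vessel walls, appeared at low levels in the resistant cells. LAMA2 had 0 counts in the 3 PAR vehicle libraries and 0.929, 1.01 and 0.821 CPM in TR vehicle (69 counts), at least 13.9-fold higher against 3 counts over the parental group (edgeR adjusted p = 2.71e-05). LAMA4 had 3 counts in PAR vehicle and 31 in TR vehicle (0.464, 0.299 and 0.479 CPM), a ratio of 6.27 with an exact 95% counting interval of 1.95 to 32.0 (edgeR adjusted p = 0.0119), and it was not called without PAR vehicle 3 and TR vehicle 1 together (edgeR adjusted p = 0.0656). These 2 genes lay above the median of the members (1.50) by the fit and by the bound or ratio alike, so the choice could not move it.

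LAMA5 and LAMB2, the alpha and beta chains of a widespread epithelial and vascular laminin, were the most abundant laminin genes per kilobase in PAR vehicle (LAMB2 20.3, range 10.1 to 35.8; LAMA5 5.16, range 1.56 to 11.2), and the range of LAMA5 took in those of LAMC1 and LAMB1. LAMA5 was at 38.8, 22.2 and 160.1 CPM in PAR vehicle and 31.2, 156 and 193 CPM in TR vehicle, and LAMB2 at 102, 69.6 and 246 CPM against 24.5, 95.1 and 103 CPM. In both genes the highest parental library was PAR vehicle 3 and the lowest resistant one TR vehicle 1. Neither was called, with log2 fold changes of 0.77 (95% interval -0.99 to 2.52) for LAMA5 and -0.91 (-2.15 to 0.34) for LAMB2. LAMA5 was called at 2.50 (edgeR adjusted p = 0.0106) without PAR vehicle 3 and TR vehicle 1 together. After GC correction LAMA5 was at 0.34 and not called (edgeR adjusted p = 0.141). In TR vehicle LAMC1 stood highest per kilobase (13.2, range 12.1 to 14.4), and the range of LAMB2 (3.56 to 15.1) took it in. In CPM, without the exon length, the TR vehicle means of LAMB1 (127) and LAMA5 (127) lay above that of LAMC1 (112).

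**Figure D2:**
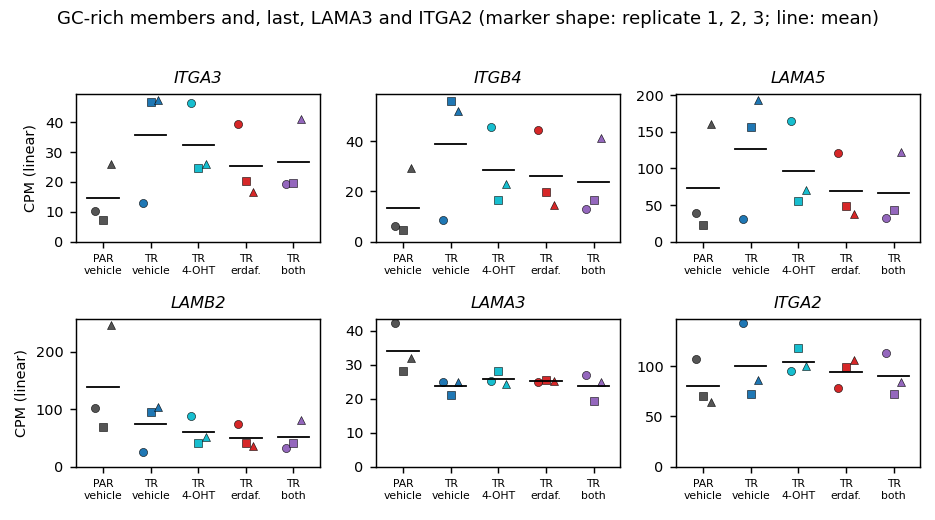
CPM on a linear axis from 0 in each library for 4 GC-rich members (ITGA3, ITGB4, LAMA5 and LAMB2) and for LAMA3 and ITGA2, with a marker shape per replicate and a line at the group mean. LAMA5 runs from 22.2 to 160.1 CPM within PAR vehicle, while LAMA3 runs from 28.1 to 42.3 CPM.

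The spread of the members between libraries of a group was larger in GC-rich genes. The SD of log2 CPM within groups ran from 0.136 for LAMB1 (transcript GC 49.5%) to 1.24 for ITGB7 (59.4%), with LAMA5 at 1.16 (66.4%) and ITGB4 at 1.13 (63.7%). Across the 22 members, which share the 15 libraries, SD and GC had a Pearson r of 0.658 and a Spearman rho of 0.613. Of the 7 members in the GC-richest quintile of tested genes 2 were called (ITGA7 and LAMB3), where 20.9% of all genes in that quintile were, and 1 of the 4 in the quintile next to it was (ITGA5, against 36.2%). Of the 11 members in the 3 GC-poorer quintiles 10 were called, where 38.0, 41.1 and 43.1% of all genes were, from the GC-poorest up.

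When each library's trend on GC was removed, 14 members were higher and 2 lower in TR vehicle, with 49.3% of all genes called (23.7% higher and 25.6% lower). The genes that joined were ITGA3 (log2 fold change 0.84, edgeR adjusted p = 0.000236) and ITGB4 (1.09, 0.00246), and LAMB2 fell by 1.34 (edgeR adjusted p = 7.24e-06). Without PAR vehicle 3 and TR vehicle 1 together, 17 members were higher and LAMA3 lower, with 46.0% of all genes called. ITGA3 (log2 fold change 2.41), ITGAE, ITGB4 (3.34), ITGB5, ITGB7 (3.59) and LAMA5 were called in that fit and LAMA4 was not. There the GC-richest quintile deviated by -0.227 and -0.659 in the 2 parental libraries that remained and by 0.513 and 0.508 in the 2 TR vehicle libraries, measured from the mean of all 3 libraries of each group. LAMB2 then had a log2 fold change of 0.21, against -0.91 with all libraries and -1.34 after GC correction.

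**Figure D3:**
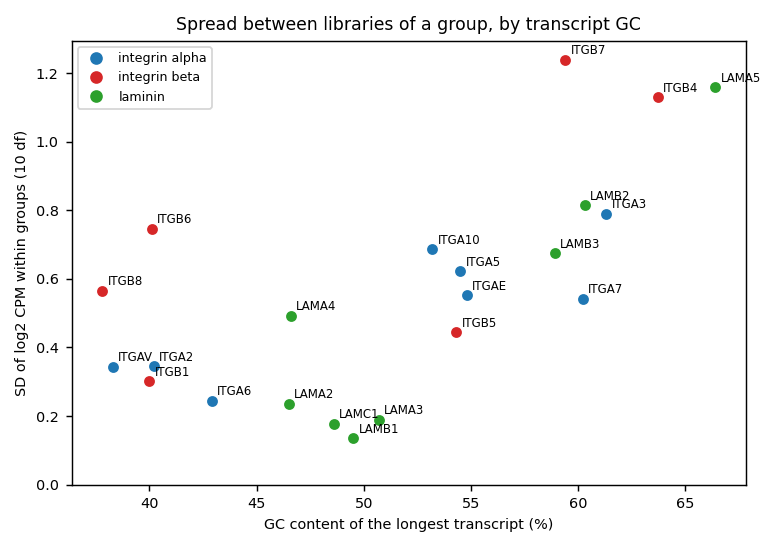
SD of log2 CPM within groups (10 degrees of freedom) against the GC content of the longest transcript for the 22 tested members, coloured by family. LAMB1 has the lowest SD, 0.136, and ITGB7 the highest, 1.24.

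Resistant cells on both drugs held more ITGB6, LAMB3, ITGA6, ITGA5, LAMC1 and ITGB1 RNA than parental cells on vehicle. Compared with PAR vehicle, TR combination had 10 of 22 members higher and 1 lower (34.6% of all genes were called, 19.4% higher and 15.2% lower), and this comparison shares the parental libraries with the one above. Here too ITGB6, LAMB3, LAMA2 and LAMA4 came into the test only through resistant libraries. ITGB6 was at 44.6, 37.4 and 27.1 CPM in TR combination, a log2 fold change of 6.38 (SE 0.409, edgeR adjusted p = 3.73e-08) beside 7.16 for TR vehicle. LAMB3 was at 2.64, 3.95 and 4.84 CPM, a log2 fold change of 4.13 beside 5.24. The values for TR combination were 7.07 (ITGB6) and 6.01 (LAMB3) without PAR vehicle 3. The parental and treated libraries did not overlap for either gene.

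ITGA6 stood at 2.33 on the log2 scale against PAR vehicle, ITGA5 at 2.099, LAMC1 at 1.52, ITGB1 at 1.38 and LAMB1 at 0.77, all called by edgeR. ITGAV (0.81, edgeR adjusted p = 0.0257) was not called without PAR vehicle 3 (0.67, adjusted p 0.0811) or TR combination 1 (0.57, 0.127). LAMA2 was at least 12.9-fold higher and LAMA4 had a ratio of 12.1 (exact 95% counting interval 3.92 to 60.2). LAMA3 fell by 0.52 (edgeR adjusted p = 0.0348) and lost its call without PAR vehicle 1 (adjusted p 0.185), TR combination 2 (0.158) or TR combination 3 (0.0579).

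ITGA7 (1.18, edgeR adjusted p = 0.0576) and ITGB8 (1.20, 0.0587) were called in TR vehicle against PAR vehicle and not in TR combination against PAR vehicle. ITGA7 passed without PAR vehicle 3 (1.53, 0.0477) and ITGB8 without PAR vehicle 1 (1.89, 0.0101). With all libraries both were called after GC correction (edgeR adjusted p = 0.0167 for ITGA7 and 0.0177 for ITGB8) and by DESeq2 (adjusted p = 0.0332 and 0.0301). The side of the threshold thus depended on the libraries and on the fit. Without PAR vehicle 3 and TR vehicle 1 together ITGA3 (1.58, edgeR adjusted p = 0.0134, beside 0.84 with all libraries), ITGB4 (2.14, 0.0145, beside 0.79) and ITGA7 (1.52, 0.0203) were called. ITGA10 passed without PAR vehicle 2 (2.41, 0.000668), and LAMB2, at -1.43 with all libraries, without PAR vehicle 2 (-1.74, 0.0405) or TR combination 3 (-1.93, 0.0387). After GC correction 17 members were called, with 48.5% of all genes.

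**Figure D4:**
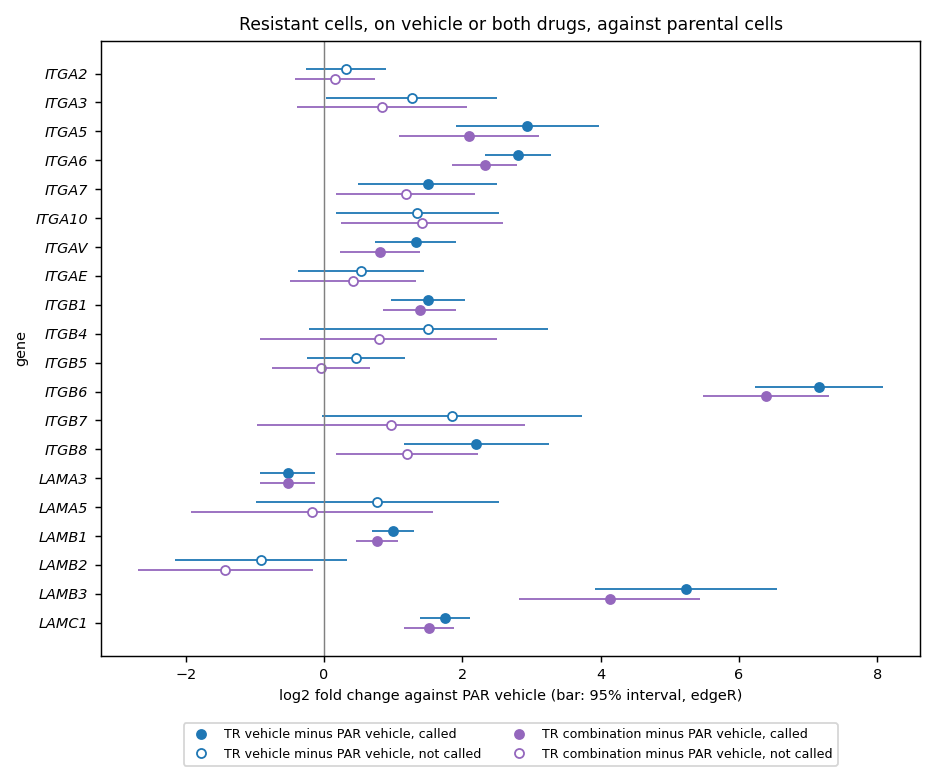
Fitted log2 fold change against PAR vehicle with its 95% interval (edgeR) for 20 of the tested members, for TR vehicle and for TR combination, filled where called. ITGB6 lies at 7.16 and 6.38 and LAMB3 at 5.24 and 4.13, and LAMA2 and LAMA4 are left out because PAR vehicle held 0 and 3 counts.

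4-OHT alone left these genes without a detected change in the resistant cells. None of the 22 members was called between TR 4-OHT and TR vehicle, and none had an unadjusted p under 0.05, with 11 above 0 and 11 below it. Among all genes 0 were called by edgeR (0.0% of those tested, 127 at an unadjusted p under 0.05) and 0 by DESeq2. The intervals show what could have been seen, with LAMB1 at 0.02 (95% interval -0.28 to 0.32), ITGB6 at 0.03 (-0.60 to 0.66) and LAMA5 at -0.38 (-2.13 to 1.36). Adding 4-OHT to erdafitinib gave 0 members as well, with 0 genes called by edgeR (0.0%, 104 at an unadjusted p under 0.05) and 18 by DESeq2, none of them a member.

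Erdafitinib left most members lower in level without a call in the test on the counts as deposited. Averaged over the arms without and with 4-OHT, 6 libraries against 6, 19 of 22 members had a log2 fold change below 0, against 52.1% of all genes. The median was -0.37, against -0.01 over all genes. After GC correction 17 of 22 lay below 0, against 50.8% of all genes, and the median was -0.19 against -0.005. On the counts as deposited none of the 22 was called (0 of 22, against 1.71% of all genes). An unadjusted p under 0.05 was reached by 6 of the 22, and by 1897 of all 16210 genes. The groups of 6 overlapped for every member, and did not for 3.38% of all genes.

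The 6 were LAMB3, ITGB8, ITGB6, ITGA5, ITGA6 and LAMC1. LAMB3 was at 4.64 to 10.6 CPM (mean 8.46) in the 6 libraries without erdafitinib and 2.64 to 5.94 CPM (mean 4.25) with it, a log2 fold change of -0.9996 (95% interval -1.69 to -0.31, edgeR adjusted p = 0.16). ITGB8 was at 6.25 to 17.9 CPM (mean 10.1) and 3.85 to 6.6 CPM (mean 5.12), a log2 fold change of -0.98 (edgeR adjusted p = 0.165). ITGB6 was at 47.1 to 75.7 CPM (mean 62.9) and 27.1 to 49.4 CPM (mean 39.1), a log2 fold change of -0.69 (95% interval -1.14 to -0.24, edgeR adjusted p = 0.123). In each of the 3 genes the highest treated library lay above the lowest untreated one.

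ITGA5 had a log2 fold change of -0.67 (edgeR adjusted p = 0.397), ITGA6 of -0.45 (0.163) and LAMC1 of -0.31 (0.253). LAMA3 (-0.02, 95% interval -0.30 to 0.27) and ITGB1 (-0.08, 95% interval -0.45 to 0.29) lay near 0. Basal marker sums, 449 to 1256 CPM in the libraries without erdafitinib, were 438 to 721 CPM with it, and their part in these values was not tested.

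Other settings gave calls. After GC correction 7 members fell (31.8% of the members, against 3.01% of all genes falling), namely ITGB8 (-1.04, edgeR adjusted p = 0.0132), LAMB3 (-0.83, 0.01), ITGB6 (-0.78, 0.00227), ITGA6 (-0.50, 0.00127), LAMA5 (-0.47, 0.0477), ITGAV (-0.43, 0.00867) and LAMC1 (-0.32, 0.0492). DESeq2 on the uncorrected counts called 3, ITGB6, ITGB8 and LAMB3 as lower (13.6%, against 1.96% of all genes). Without PAR vehicle 3 and TR vehicle 1, edgeR called ITGA5 (-0.87, adjusted p = 0.0305) and LAMB3 (-1.14, 0.0145) as lower, with 2.09% of all genes lower. Only TR vehicle 1 of these libraries belongs to the groups compared. In TR vehicle 2 and TR vehicle 3, which stayed, the GC-richest quintile deviated by 0.513 and 0.508. After GC correction with all libraries ITGA5 was at -0.58 and not called (edgeR adjusted p = 0.0737).

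**Figure D5:**
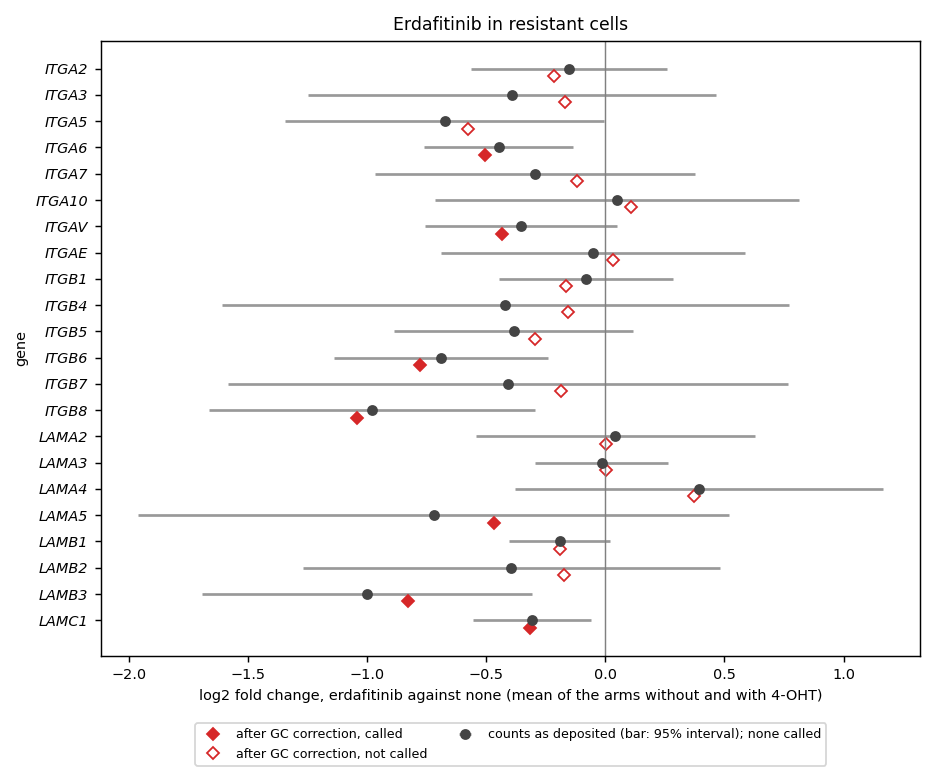
Log2 fold change of erdafitinib against none in the resistant cells, averaged over the arms without and with 4-OHT (6 libraries each), with its 95% interval for the counts as deposited (circles) and as a value after GC correction (diamonds, filled where called). No circle was called, and 7 diamonds were, between -1.04 for ITGB8 and -0.32 for LAMC1.

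In the separate arms the same direction was seen for 18 of 22 members (17 below 0 in both arms and 1, LAMA4, above 0 in both). No library is shared between the arms, but within an arm all members come from the same libraries. The share of all genes with 1 direction in both arms was not computed. Below 0 were 18 of 22 members in the arm without 4-OHT (54.4% of all genes) and 20 of 22 in the arm with it (48.9%). Erdafitinib alone against vehicle gave 0 members of the 15 genes called (0.0925% of all genes). ITGA6 was the 1 member with an unadjusted p under 0.05, which 700 of all 16210 genes had. It was also the 1 member whose groups did not overlap (77.8 to 97.3 CPM against 100.3 to 168 CPM), as in 11.6% of all genes. TR combination against TR 4-OHT gave 0 members of 104 genes called (0.642%). ITGA6, ITGB6, ITGB8, LAMB3 and LAMC1 had unadjusted p under 0.05 and groups that did not overlap. Among all 16210 genes, 15.7% had groups that did not overlap, and 1405 had an unadjusted p under 0.05. ITGB8 was at 6.64, 17.9 and 8.74 CPM in TR 4-OHT and 5.28, 4.59 and 3.85 CPM in TR combination, and LAMB3 at 10.6, 9.94 and 5.67 against 2.64, 3.95 and 4.84 CPM. After GC correction 5 members fell in this arm (ITGA6, ITGAV, ITGB6, ITGB8 and LAMB3, against 1.43% of all genes) and 0 in the arm without 4-OHT. The difference between the arms was tested as an interaction, which called 0 members and 0 genes in edgeR (0.0%, 134 at an unadjusted p under 0.05, 1 gene by DESeq2).

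Of 31 tested adhesion adaptors, which link integrin tails to actin, 13 rose and 2 fell in TR vehicle against PAR vehicle, where 19.9% of all genes rose and 16.0% fell, with a median log2 fold change of 0.71 beside 0.07 over all genes. VCL (vinculin) rose by 2.07, PXN (paxillin) by 1.76 and RSU1, of the ILK complex, by 1.06. After GC correction 17 adaptors rose and 3 fell (23.7% and 25.6% of all genes), with a median of 0.41 beside -0.05 over all genes. Under erdafitinib 2 of the 31 fell in the pooled comparison, where 1.71% of all genes were called, NEDD9 (-1.61, edgeR adjusted p = 0.00234) and TNS4 (-1.23, 0.0335).

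Of 12 hemidesmosome and other laminin receptor genes 4 rose and 2 fell in TR vehicle (median 0.75), beside the same 19.9% and 16.0% of all genes. The heparan sulfate proteoglycan SDC1 rose by 2.13 and its relative SDC4 fell by 0.61, and the hemidesmosomal collagen COL17A1 had 0 counts in PAR vehicle and 0.631 CPM in TR vehicle. None of the 12 was called under erdafitinib, where 12 of 12 lay below 0 (median -0.38) and 52.1% of all genes did. After GC correction 1 of the 12 fell (3.01% of all genes did), 11 lay below 0 (50.8% of all genes) and the median was -0.22. In TR vehicle 6 rose and 2 fell after that correction (median 0.55, with 23.7% and 25.6% of all genes). Of 9 tested basement membrane partners 5 rose and 0 fell in TR vehicle (median 1.80, again beside 19.9% and 16.0%). NTN4, a netrin that binds laminin, went from 1.13 ± 0.793 to 256 ± 16.2 CPM (SD, n = 3 each, edgeR adjusted p = 4.03e-10), and COL4A5 rose by 1.80, while FRAS1 had 1 count in PAR vehicle and 3.24 CPM in TR vehicle. COL17A1 and FRAS1 likewise passed the filter only through resistant libraries. NTN4 was also the 1 gene of this list called under erdafitinib (-0.94, edgeR adjusted p = 0.00391, with 1.71% of all genes called). After GC correction 7 of the 9 rose and 1 fell in TR vehicle (median 1.72), and 3 fell under erdafitinib (3.01% of all genes did).

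Of 20 tested genes listed as other integrin ligands 13 rose and 2 fell in TR vehicle (median 1.10), against 19.9% and 16.0% of all genes. TNC (tenascin), a ligand of the receptor with ITGB6, had 1 count in PAR vehicle and was at 105 ± 32.1 CPM in TR vehicle (SD, n = 3), and TGFB2 (2.58) and ADAM9 (1.97) rose. TNC, too, passed the filter only through resistant libraries. Under erdafitinib 8 of these 20 fell and 0 rose, against 1.71% of all genes called, with all 20 below 0 (52.1% of all genes) and a median of -0.61 beside -0.01 over all genes. After GC correction 11 fell (3.01% of all genes did), all 20 lay below 0 and the median was -0.41. FN1, the fibronectin bound by ITGA5 with ITGB1, went from 91.6 ± 12.9 to 39.6 ± 4.51 CPM (SD, n = 6 each), a log2 fold change of -1.21 (SE 0.116, edgeR adjusted p = 6.55e-05) with groups that did not overlap. TGFB2 (-1.37, edgeR adjusted p = 0.0014) and the matricellular CCN2 (-2.74, 0.00346) fell too. The difference between listed ligands and receptor subunits was not itself tested. Binding of the listed products, TGFB2 among them, to the receptors named here was not examined.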

How the data were processed

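RNA was counted in 15 libraries of T47D cells, 3 in each of 5 groups. A stranded kit turned total RNA into paired-end libraries, per the labels' protocols. HISAT2 2.1.0 and the build GRCh38 are named in the submitters' processing notes. The authors deposited unnormalized counts for each Ensembl gene from featureCounts 2.0.1, counted as pairs on the reverse strand with Ensembl release 104, per the file headers, while version 1.4.6-p1 of the tool stands in the submitters' processing notes. Trimming was not given in the sources used here. The exon length of each gene, in the same deposited files, served for CPM per kilobase. It covers all annotated exons and not the transcript in use, so the order of genes on that scale is approximate. Nothing says that the libraries of a group came from separate cultures, so p-values measure only how these samples spread, possibly for technical reasons. Libraries of a group differed by a chi-square of 7.42 to 148 per gene, and none was a copy.

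Of 60664 gene IDs 60463 had a symbol. Genes were kept by filterByExpr (16210 passed and 44454 did not), TMM factors were 0.9068 to 1.102, and all 15 libraries entered 1 quasi-likelihood fit in edgeR 4.0.16 (R 4.3.3), leaving 10 residual degrees of freedom, and the common biological coefficient of variation was 30.8%. Calls are Benjamini-Hochberg adjusted p-values below 0.05 over all genes tested. Standard errors came from the F statistic. CPM used the TMM-scaled totals, and a group at 0 was compared at 3 counts over the group. Intervals of counts cover counting error only. The script was tested on simulated data. The GC correction removed, per library, a lowess trend (span 0.3) on the GC content of the longest GENCODE 29 transcript, for 16033 genes. Alternatives were DESeq2 1.42.0, other scaling and filters, fewer groups in the fit, a replicate block, a covariate for the leading axis of variation within groups, and libraries left out. The fit without PAR vehicle 3 and TR vehicle 1 together was chosen after seeing the data. Promoter windows came from RefSeq (GRCh38.p14), with 23 of the 31 genes matched.

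The members and lists were chosen with earlier results of these data known. By rule, values of every library are given for members called at an absolute log2 fold change of at least 1 in TR vehicle against PAR vehicle, called under erdafitinib, or highest or lowest per kilobase, and for others as ranges. From the 4 lists of partner genes, up to 3 called genes with the smallest p are named in TR vehicle against PAR vehicle and in the pooled erdafitinib comparison. Per-library values of LAMA3, ITGB4, ITGA10, LAMA5 and LAMB2 were added after their values were seen.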

Additional observations from a re-analysis of the deposited data

How the results depend on the processing

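Of the 13 members called in TR vehicle against PAR vehicle, ITGA5, ITGA6, ITGAV, ITGB1, ITGB6, ITGB8, LAMA2, LAMB1, LAMB3 and LAMC1 were called in all 17 alternative fits, while ITGA7 and LAMA3 were called in 12 of 17 and LAMA4 in 14 of 15. In TR combination against PAR vehicle ITGAV was called in 14 of 17 and LAMA3 in 12 of 17, and the other called members in every fit that tested them. The cause of these losses was not tested. Depth limits the near-absent genes, since 3 counts in PAR vehicle 2 already equal 0.477 CPM.

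With the leading within-group axis as a covariate, members called numbered 20 in TR vehicle against PAR vehicle, 17 in TR combination against PAR vehicle, 1 in TR erdafitinib against TR vehicle, 6 in TR combination against TR 4-OHT and 8 in the pooled erdafitinib comparison. All genes called were then 8888, 8544, 277, 746 and 1715 in that order, and 17 in TR combination against TR erdafitinib. The main counts of all genes in these comparisons were 5818, 5616, 15, 104, 278 and 0. With the GC correction 17 members were called in TR combination against PAR vehicle, 5 in TR combination against TR 4-OHT and 7 in the pooled comparison, with 105, 380 and 928 genes in TR erdafitinib against TR vehicle, TR combination against TR 4-OHT and the pooled comparison, and 10 in TR combination against TR erdafitinib. DESeq2 called 3 members in the pooled comparison, and 87, 288, 580 and 18 genes in those 4 comparisons and 1 gene for the interaction. With only the compared groups in the fit the pooled comparison called 1 member, and 3408, 0 and 65 genes were called in TR vehicle against PAR vehicle, TR erdafitinib against TR vehicle and TR combination against TR 4-OHT. Without a filter on low counts 26 genes were called in TR erdafitinib against TR vehicle and 9 in TR combination against TR erdafitinib. Without PAR vehicle 3 and TR vehicle 1 together, a setting added later, 2 members were called in the pooled comparison, and 51, 202, 5 and 756 genes in TR erdafitinib against TR vehicle, TR combination against TR 4-OHT, TR combination against TR erdafitinib and the pooled comparison.

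Replicate numbers did not pair the libraries. Of 30 pairs of same-numbered libraries 13 had deviations correlated above 0.1 (range -0.827 to 0.772). The replicate block moved no count of members by more than 1.5 times, and it gave 9 genes in TR erdafitinib against TR vehicle. The replicate block with GC correction gave 17 members in TR combination against PAR vehicle, 3 in TR combination against TR 4-OHT and 6 in the pooled comparison, and 82, 334, 11 and 815 genes in TR erdafitinib against TR vehicle, TR combination against TR 4-OHT, TR combination against TR erdafitinib and the pooled comparison.

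Leaving out 1 library at a time gave 11 to 17 members in TR vehicle against PAR vehicle, 10 to 13 in TR combination against PAR vehicle and 0 in every other comparison. All genes called were 4695 to 6266 in TR vehicle against PAR vehicle, 4609 to 5548 in TR combination against PAR vehicle, 2 to 17 in TR erdafitinib against TR vehicle, 45 to 63 in TR combination against TR 4-OHT and 140 to 445 in the pooled comparison.

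Directions turned for members that were not called. Leaving out 1 library at a time, ITGA2 ran from -0.011 to 0.58 in TR vehicle against PAR vehicle, and in TR combination against PAR vehicle ITGA2 ran from -0.028 to 0.43, ITGB5 from -0.24 to 0.32 and LAMA5 from -0.998 to 1.13. In the pooled comparison ITGA10 ran from -0.042 to 0.18, ITGA2 from -0.25 to 0.022, ITGAE from -0.19 to 0.0998, ITGB1 from -0.196 to 0.048, LAMA2 from -0.082 to 0.13 and LAMA3 from -0.062 to 0.049. Without PAR vehicle 3 and TR vehicle 1 together, ITGA2 was at -0.16 and LAMB2 at 0.21 in TR vehicle against PAR vehicle, ITGB5 at 0.31 and LAMA5 at 1.11 in TR combination against PAR vehicle, and ITGA2 at 0.020, ITGA10 at -0.022, ITGB1 at 0.047 and LAMA3 at 0.0070 in the pooled comparison. In TR combination against PAR vehicle ITGB5 was at 0.00013 without a filter and LAMA5 at 0.13 with the axis as a covariate. In the pooled comparison without the 2 shallowest libraries ITGAE was at 0.099 and LAMA3 at 0.016, and with GC correction ITGAE was at 0.034 and LAMA3 at 0.0027, or at 0.0345 and 0.0030 with the replicate block as well, where LAMA2 was at -0.0049. The cause of these turns was not tested.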

Other observations

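Members below the level of a test left a few counts. Summed over the 3 libraries of PAR vehicle, TR vehicle, TR 4-OHT, TR erdafitinib and TR combination in turn, ITGA9, a tenascin and osteopontin receptor subunit, had 0, 4, 1, 12 and 4 counts. ITGA11, a fibroblast collagen receptor subunit, had 0, 8, 3, 5 and 1 counts, and ITGA1, the collagen IV receptor subunit, had 12, 14, 15, 23 and 25. ITGB2, the leukocyte beta subunit, had 5, 7, 5, 2 and 9 counts. LAMC3 had 4 counts over all libraries and LAMA1 had 2.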
